A study of Homo sapiens with 6 samples.

Results

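The AP-1 and immediate early genes comprised 10 named genes: FOS, FOSB, FOSL2, JUN, JUNB, JUND, EGR1, IER2, IER3 and ATF3. They were chosen by name, with earlier results of these data known. All 10 were found among the 58515 gene symbols that stood on a single row in each of 6 tables. All 10 also passed the filter on low values that left 14781 genes for testing. The libraries were made from tumours that MHCC97L cells formed as xenografts in a host animal. MHCC97L is a cultured line derived from human liver cancer (hepatocellular carcinoma). The sources used here do not give the host strain, the dose, route and duration of treatment, or whether each library stands for its own tumour. The Ctrl group (3 libraries, A to C) and the rhLUM group (3 libraries, A to C) shared the line and the xenograft setting and differed in recombinant human lumican, a secreted proteoglycan of the matrix, which was given to the rhLUM group only. P-values therefore measure the spread between these libraries, which may be technical. The comparison asks which of these genes differ in transcript level when lumican is supplied.

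AP-1 is a pair of proteins joined through leucine zippers, with a partner from the JUN family (JUN, JUNB, JUND) and a partner from the FOS family (FOS, FOSB, FOSL1, FOSL2), the JUN family or the ATF family. Immediate early genes are switched on within minutes of a stimulus such as a growth factor, a cytokine or stress, without new protein synthesis, through factors already present in the cell. Their transcripts are short-lived, so their level follows the current state of the signalling that drives them, above all the MAP kinases acting on serum response factor (SRF) and its ternary complex partners. In liver, JUN and FOS are known for their induction during regeneration and in carcinoma.

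The stretch of DNA before the start of transcription is where such signals meet these genes. The RefSeq promoter table (GRCh38.p14) held windows of 300 bases, from 250 bases before the annotated start to 50 after it, for 9 of the 10 genes, with 2 windows for ATF3 and none matched for IER3. The windows of 5 genes are shown because they carry motifs known for these genes and belong to members that moved differently: FOS (chr14:75278578-75278877, plus strand), FOSB (chr19:45467746-45468045, plus strand), EGR1 (chr5:138465229-138465528, plus strand), JUN (chr1:58783998-58784297, minus strand) and JUND (chr19:18281573-18281872, minus strand). Capitals mark matches, on either strand, to TGACTCA (the AP-1 site, equal to TGAGTCA on the other strand), TGACGTCA (the cyclic AMP response element), its first 6 letters TGACGT, TGACATCA (the variant known from the JUN promoter), TATAAA and the CArG box, which SRF binds.
FOS: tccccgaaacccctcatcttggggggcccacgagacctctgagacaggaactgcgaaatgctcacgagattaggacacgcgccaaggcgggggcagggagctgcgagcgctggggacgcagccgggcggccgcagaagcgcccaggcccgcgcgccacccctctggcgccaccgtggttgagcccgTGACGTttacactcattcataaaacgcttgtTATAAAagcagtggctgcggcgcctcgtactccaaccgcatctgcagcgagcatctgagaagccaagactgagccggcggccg
FOSB: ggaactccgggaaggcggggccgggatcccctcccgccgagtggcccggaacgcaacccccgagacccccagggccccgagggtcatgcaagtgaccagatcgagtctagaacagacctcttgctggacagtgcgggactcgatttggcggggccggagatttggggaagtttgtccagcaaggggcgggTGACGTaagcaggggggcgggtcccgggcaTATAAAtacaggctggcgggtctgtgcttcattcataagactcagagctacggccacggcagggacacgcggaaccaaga
EGR1: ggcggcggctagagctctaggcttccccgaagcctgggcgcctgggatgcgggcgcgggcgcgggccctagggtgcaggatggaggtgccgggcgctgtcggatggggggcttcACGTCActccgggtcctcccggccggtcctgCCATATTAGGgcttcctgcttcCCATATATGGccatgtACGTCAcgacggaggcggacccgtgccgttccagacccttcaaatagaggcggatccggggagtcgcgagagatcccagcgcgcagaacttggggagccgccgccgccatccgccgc
JUN: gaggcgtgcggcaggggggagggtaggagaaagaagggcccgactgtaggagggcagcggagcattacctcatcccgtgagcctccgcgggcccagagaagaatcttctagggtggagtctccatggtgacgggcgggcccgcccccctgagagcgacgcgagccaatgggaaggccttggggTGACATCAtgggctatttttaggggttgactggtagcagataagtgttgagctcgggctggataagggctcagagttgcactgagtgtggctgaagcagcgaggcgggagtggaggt
JUND: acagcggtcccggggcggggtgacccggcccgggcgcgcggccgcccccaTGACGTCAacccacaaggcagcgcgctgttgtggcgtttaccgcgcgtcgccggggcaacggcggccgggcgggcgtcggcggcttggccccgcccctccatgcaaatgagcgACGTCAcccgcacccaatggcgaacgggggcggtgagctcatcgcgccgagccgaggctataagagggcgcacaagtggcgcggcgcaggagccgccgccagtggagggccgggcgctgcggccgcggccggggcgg
TGACATCA and TGACGT were added after the windows had been read, and TGACGT also lies within TGACGTCA.

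Positions are counted from the annotated start, whose first transcribed base is 1 and whose preceding base is -1. FOS had TGACGT at -64 and TATAAA at -33, and FOSB had the same pair of motifs at -60 and -30. EGR1 had 2 CArG boxes, at -105 and -83, each read on both strands, and the reverse complement of TGACGT at -136 and -67. JUN had TGACATCA at -67, as had the first ATF3 window at -123, while the second ATF3 window had TATAAA at -230. JUND had the full TGACGTCA at -200 and a second reverse complement of TGACGT at -87. JUNB had TATAAA at -31, FOSL2 had TGACGT at -66 and TGACTCA at 5, and the IER2 window held none of these letters. Of all 35116 windows in the table, TGACGT was found in 7.98%, TATAAA in 11.5%, TGACTCA in 4.95%, TGACATCA in 2.61%, TGACGTCA in 1.85% and the CArG box in 1.29%. A match describes the letters only.

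FOS and IER3 fell most with rhLUM, JUNB and JUN fell by smaller amounts, and EGR1 and ATF3 fell least among the members that passed the test. FOSB rose slightly as deposited, a call that did not hold under other scalings of the libraries. FOSL2, JUND and IER2 did not pass. The test was limma on log2(TPM + 1), with p-values adjusted over all 14781 genes, and fold changes on that scale are rhLUM minus Ctrl. Of the 10 members, 6 were lower and 1 was higher (limma, adjusted p under 0.05), where 22.3% of all genes tested were lower, 44.5% were higher and 66.8% passed in either direction. The share of members that passed at all was thus close to that of all genes, and the share that fell was larger than that of all genes. The members were chosen with earlier results of these data known, so the larger share is descriptive and not a test of the set. The median log2 fold change of the 10 members was -0.33, against 0.16 for all genes tested. The libraries of the groups did not overlap for 7 of the 10, against 71.4% of all genes.

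**Figure D1:**
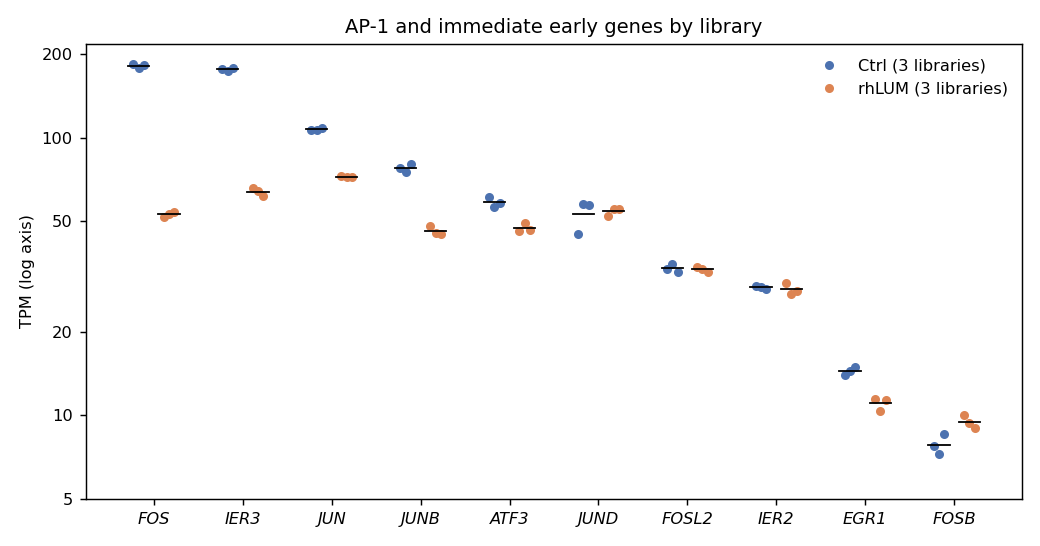
Level of each member in TPM (log axis) in the 3 Ctrl and 3 rhLUM libraries, 1 point per library, with the group mean as a bar and genes in order of their Ctrl mean. FOS drops from 182 to 53.1 TPM and IER3 from 176 to 64.0, while FOSL2, IER2 and JUND overlap between the groups.

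FOS encodes the classic induced partner of JUN. Its level was 185.25, 178.2 and 182.39 TPM in Ctrl A, B and C and 51.9, 53.23 and 54.19 TPM in rhLUM A, B and C. All rhLUM libraries lay far below all Ctrl libraries, and the spread within a group was small. The mean went from 182 ± 3.55 to 53.1 ± 1.15 TPM (SD, n = 3 per group), 3.43-fold lower, with a log2 fold change of -1.76 (SE 0.03, limma adjusted p = 4.01e-08). Of all genes tested, 1.34% had a lower fold change. FOS lies on chromosome 14 at 75278774 to 75282230 (GRCh38, GENCODE release 29, plus strand) and has up to 4 exons. Since these are bulk libraries, fewer cells expressing a gene and less RNA per cell cannot be told apart, here and for every other member.

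FOSB, whose product also joins JUN proteins, was the lowest of the members in both groups. It stood at 7.78, 7.23 and 8.54 TPM in Ctrl and at 10.02, 9.41 and 9.02 in rhLUM. The groups did not overlap, but the highest Ctrl library and the lowest rhLUM library lay close together. The mean went from 7.85 ± 0.66 to 9.48 ± 0.50 TPM (SD, n = 3), with a log2 fold change of 0.25 (SE 0.08, limma adjusted p = 0.025), against a median of 0.16 for all genes. The call was lost after median-of-ratios scaling (0.07, limma adjusted p = 0.468), and on leaving out Ctrl A, Ctrl B, rhLUM A or rhLUM B (limma adjusted p up to 0.0834). FOSB (chromosome 19, 45467995 to 45475179, plus strand) overlaps ERCC1 on the other strand. The sources used here do not state whether counting used strand, so reads of the overlap cannot be assigned.

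FOSL2, a FOS family member that is less strongly induced, ranged from 32.96 to 35.01 TPM in Ctrl and from 32.92 to 34.33 in rhLUM. The groups overlapped almost wholly, with a log2 fold change of -0.01 (95% interval -0.10 to 0.09, limma adjusted p = 0.889). Against the median of all genes, which was 0.16, this is a lower position, and median-of-ratios scaling, which moved that median to -0.02, gave FOSL2 as lower (-0.20, limma adjusted p = 0.00393). FOSL2 (chromosome 2, 28392448 to 28417312, plus strand) overlaps the antisense gene FLJ31356 and the intronic AC104695.3. FOSL1, the remaining relative of FOS, is not among the 10 members and ranged from 30.04 to 34.89 TPM in Ctrl and from 32.1 to 36.34 in rhLUM (log2 fold change 0.09, 95% interval -0.08 to 0.26).

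JUN encodes the partner that can form AP-1 alone or with FOS. It stood at 106.83, 106.96 and 108.07 TPM in Ctrl and at 73.14, 72.14 and 71.99 TPM in rhLUM. Its libraries were the most even of all members within a group, with a coefficient of variation of 0.635% in Ctrl and 0.863% in rhLUM. The mean went from 107 ± 0.68 to 72.4 ± 0.63 TPM (SD, n = 3), 1.48-fold lower, with a log2 fold change of -0.56 (SE 0.03, limma adjusted p = 2.18e-06). JUN (chromosome 1, 58780788 to 58784327, minus strand) has 1 exon.

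JUNB, which is also induced early but is a weaker activator than JUN, fell further than JUN as deposited, an order that turned after correcting for the length and GC of transcripts (-0.72 for JUNB and -0.83 for JUN). It stood at 77.96, 75.22 and 80.69 TPM in Ctrl and at 47.99, 45.3 and 45.05 in rhLUM. No rhLUM library came near a Ctrl library. The mean went from 78.0 ± 2.73 to 46.1 ± 1.63 TPM (SD, n = 3), 1.69-fold lower, with a log2 fold change of -0.74 (SE 0.04, limma adjusted p = 5.34e-06). JUNB (chromosome 19, 12791496 to 12793315, plus strand) has 1 exon and overlaps HOOK2 on the other strand.

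JUND, the JUN family member that is made steadily in resting cells, stood at 45.06, 57.64 and 57.28 TPM in Ctrl and at 52.37, 55.32 and 55.32 in rhLUM. Ctrl A lay below every other library, and the other libraries of both groups lay close together. The log2 fold change was 0.03 (95% interval -0.19 to 0.26, limma adjusted p = 0.758), the widest interval of the 10 members. Without Ctrl A it was -0.08 (limma adjusted p = 0.14), and correcting for the length and GC of transcripts gave 0.24 (limma adjusted p = 0.0486). JUND lies on chromosome 19 at 18279760 to 18281622 (minus strand), and its transcripts are the richest in GC of the members, with a median of 69.7%.

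**Figure D2:**
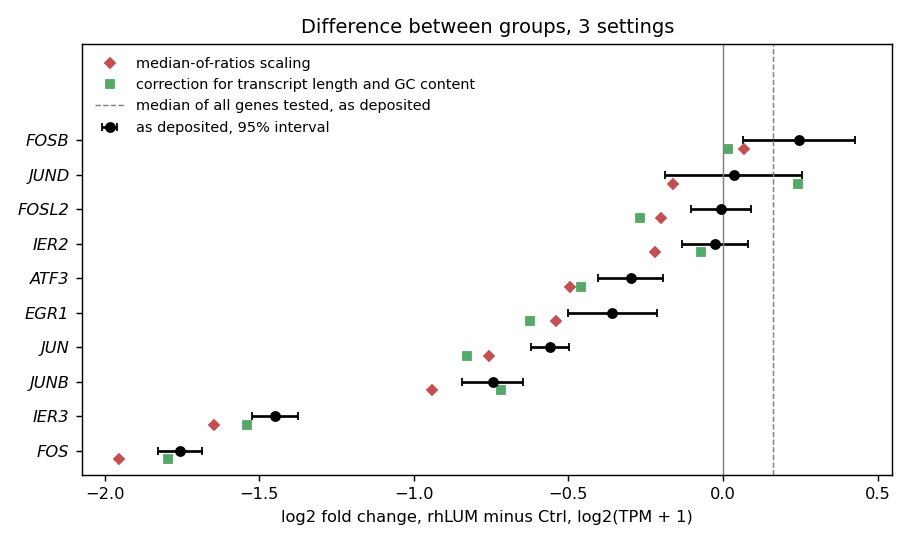
Log2 fold change (rhLUM minus Ctrl) of each member as deposited with its 95% interval, after median-of-ratios scaling (diamonds) and after correcting for the length and GC of transcripts (squares); the dashed line is the median of all genes as deposited. The 6 members that fell stay below 0 in all 3 settings, and JUND lies at 0.03, -0.16 and 0.24.

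EGR1 encodes a zinc finger factor that SRF switches on. It stood at 13.94, 14.46 and 14.91 TPM in Ctrl and at 11.5, 10.33 and 11.33 in rhLUM. All rhLUM libraries were lower, by less than FOS. Its mean moved from 14.4 ± 0.49 to 11.05 ± 0.63 TPM (SD, n = 3), with a log2 fold change of -0.36 (SE 0.06, limma adjusted p = 0.00147), and after scaling it was -0.54. EGR1 lies on chromosome 5 at 138465490 to 138469315 (plus strand, 2 exons).

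IER3, a stress-induced regulator of cell survival and a target of both ERK and NF-kB, had a fall close in size to that of FOS. It stood at 176.51, 174.2 and 178.27 TPM in Ctrl and at 65.95, 64.08 and 61.81 in rhLUM. The groups were far apart and each was tight. The mean went from 176 ± 2.04 to 64.0 ± 2.07 TPM (SD, n = 3), 2.76-fold lower, with a log2 fold change of -1.45 (SE 0.03, limma adjusted p = 1.1e-07), and 2.27% of all genes had a lower fold change. IER3 (chromosome 6, 30743199 to 30744554, minus strand) overlaps its antisense gene IER3-AS1.

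IER2, a nuclear protein gene induced with the same kinetics, did not follow IER3. It ranged from 28.63 to 29.35 TPM in Ctrl and from 27.42 to 29.93 in rhLUM, so the rhLUM range enclosed the Ctrl range. The log2 fold change was -0.03 (95% interval -0.13 to 0.08, limma adjusted p = 0.626). After median-of-ratios scaling it was -0.22 and passed (limma adjusted p = 0.00412). IER2 (chromosome 19, 13150415 to 13154908, plus strand) overlaps the antisense gene AC011446.2.

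ATF3 encodes a stress-induced factor that pairs with JUN proteins and often represses. It stood at 61.01, 56.47 and 58.42 TPM in Ctrl and at 46.25, 49.45 and 46.71 in rhLUM. The groups did not overlap. Its mean moved from 58.6 ± 2.28 to 47.5 ± 1.73 TPM (SD, n = 3), 1.24-fold lower, with a log2 fold change of -0.30 (SE 0.04, limma adjusted p = 7.09e-04). ATF3 lies on chromosome 1 at 212565334 to 212620777 (plus strand) and has 11 transcripts in GENCODE release 29.

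TPM is a level per transcript length, so the members can be put in order within a library. In Ctrl the order of the means was FOS (182), IER3 (176), JUN (107), JUNB (78.0), ATF3 (58.6), JUND (53.3), FOSL2 (33.9), IER2 (29.02), EGR1 (14.4) and FOSB (7.85 TPM). FOS and IER3, and ATF3 and JUND, overlapped between libraries there. In rhLUM the order was JUN (72.4), IER3 (64.0), JUND (54.3), FOS (53.1), ATF3 (47.5), JUNB (46.1), FOSL2 (33.7), IER2 (28.5), EGR1 (11.05) and FOSB (9.48 TPM). JUND and FOS, and ATF3 and JUNB, overlapped there. FOS thus held the first place in Ctrl and the fourth in rhLUM, and the lowest 4 places were the same.

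Shares within a family do not depend on how a library is scaled. The 4 FOS family genes, with FOSL1, summed to 261.5, 251.3 and 253.9 TPM in Ctrl and to between 128.2 and 132.6 in rhLUM. FOS held 70.83%, 70.92% and 71.83% of that sum in Ctrl and 39.14%, 40.94% and 42.26% in rhLUM. The shares of the other members of the family were therefore higher, FOSL1 with 12.5 ± 0.78% and 26.1 ± 1.21%, FOSL2 with 13.2 ± 0.59% and 25.9 ± 0.17%, and FOSB with 3.07 ± 0.26% and 7.28 ± 0.26% (SD, n = 3). FOS was the main FOS family transcript in Ctrl, and in rhLUM FOS, FOSL1 and FOSL2 were nearer to each other.

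The JUN family summed to 229.8, 239.8 and 246.0 TPM in Ctrl and to 173.5, 172.8 and 172.4 in rhLUM. JUND held 19.6%, 24.03% and 23.28% of it in Ctrl and 30.18%, 32.02% and 32.1% in rhLUM. JUNB went from 32.7 ± 1.28% to 26.7 ± 0.86% (SD, n = 3). JUN held 43.92% to 46.48% in Ctrl and 41.76% to 42.16% in rhLUM. JUN stayed the largest part in every library. For each of the 7 shares and both sums the groups did not overlap, and the two-sided exact permutation p was 0.1, the smallest that 3 against 3 libraries can give.

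**Figure D3:**
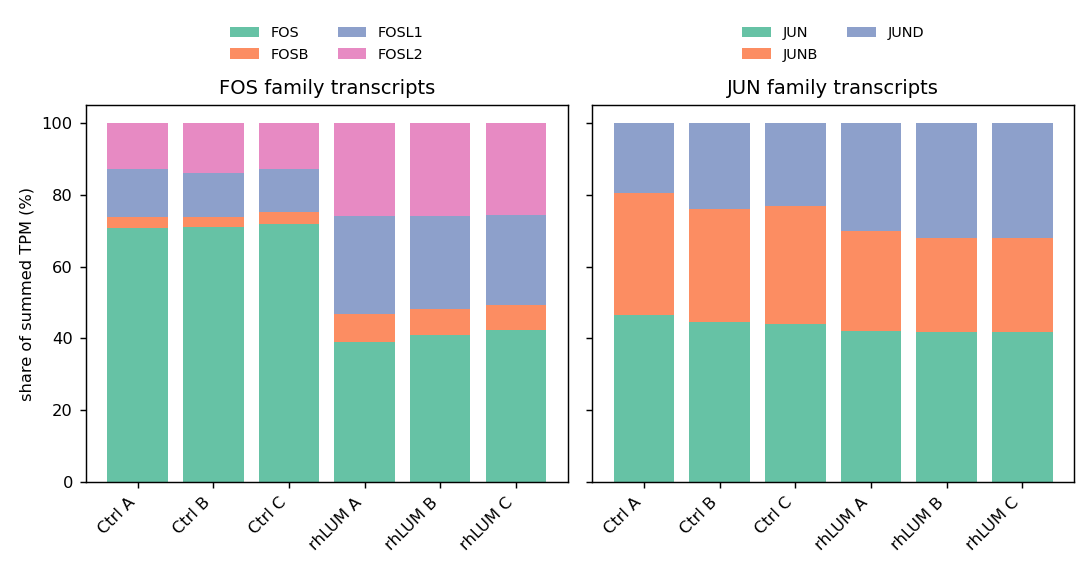
Share (%) of each gene in the summed TPM of the FOS family (left) and the JUN family (right), 1 bar per library. FOS takes 71.2% of its family in Ctrl and 40.8% in rhLUM, and JUND rises from 22.3% to 31.4% of the JUN family.

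The genes with profiles most like those of the members were sought by the root mean square distance between log2(TPM + 1) values over the 6 libraries, each centred on its own mean. For FOS the nearest were STC1 (distance 0.037), a secreted glycoprotein, and FGA (0.049), a fibrinogen chain. FGA went from 302 to 93.9 TPM, 3.21-fold lower. STC1 was low, at 3.93 and 0.44 TPM, and its 8.86-fold lower mean came near the 3.43-fold of FOS only on the log2(TPM + 1) scale, which compresses low values. For IER3 they were HAS2 (0.029) and SCNN1A (0.034). For JUN they were MT-CYB (0.014) and B2M (0.016), for JUNB TRIM47 and PLXND1 (0.032 each), and for EGR1 MTHFS (0.014) and SLC22A15 (0.025). For ATF3 they were NRD1 (0.025) and DARS (0.026), and for FOSB CAPN1 (0.031) and C7orf31 (0.035). SLC22A15 was low like STC1, at 1.79 and 1.14 TPM, and was 1.57-fold lower against 1.31-fold for EGR1. No member was among the nearest of another.

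Beyond the 10, a list of 38 other immediate early genes was examined, of which 32 were tested. Of these, 15 were lower and 9 higher, with a median of -0.13, and after median-of-ratios scaling 17 were lower and 5 higher. Over all genes tested, 22.3% were lower and 44.5% higher, and 32.5% and 32.7% after that scaling. DUSP1, the phosphatase that switches off MAP kinases, went from 101 ± 1.81 to 24.5 ± 0.63 TPM (SD, n = 3), a log2 fold change of -2.00 (limma adjusted p = 4.52e-08). ZFP36, which encodes tristetraprolin, a protein that hastens the decay of short-lived transcripts, changed by -1.61, from 245 ± 8.43 to 79.6 ± 2.08 TPM. PLK2, a polo-like kinase, changed by -1.89 and the factor CEBPB by -0.96. DUSP1, PLK2 and ZFP36 thus fell by amounts like those of FOS and IER3.

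The genes of that list that rose were KLF10 (0.71), SRF (0.69), KLF4 (0.66), PHLDA1 (0.62), CCN2 (0.60), BTG2 (0.27), RHOB (0.22), MCL1 (0.20) and DUSP5 (0.14). The calls of BTG2, RHOB, MCL1 and DUSP5 were lost after scaling. CCN2, a matricellular protein gene, went from 19.7 ± 0.56 to 30.4 ± 0.75 TPM while its relative CCN1 changed by -0.50, from 10.1 ± 0.12 to 6.91 ± 0.86 (SD, n = 3). The 6 untested genes had a mean under 1 TPM. Among them were EGR2 and EGR3, close relatives of EGR1, and EGR4 was at 0 in all 6 libraries.

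**Figure D4:**
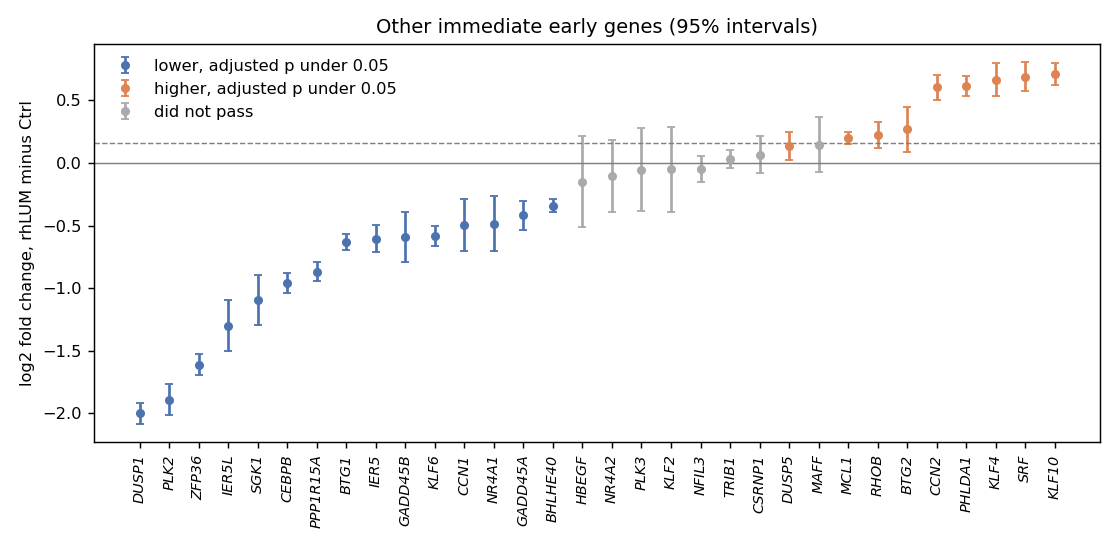
Log2 fold change (rhLUM minus Ctrl) with 95% intervals for the 32 tested genes of the list of other immediate early genes, in order, coloured by call, with the median of all genes dashed. DUSP1, PLK2 and ZFP36 lie lowest, and the 9 higher genes reach 0.71 at KLF10.

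Of 13 tested factors related to AP-1 (ATF, CREB, BATF and small MAF genes, with FOSL1), 6 were higher and 1 lower, and their median was 0.18. Over all genes as deposited, 44.5% passed as higher, 22.3% passed as lower and the median was 0.16. The share of the list that rose and its median were thus close to those of all genes. The share that fell was smaller. JDP2, a JUN partner that represses AP-1 sites, went from 3.50 ± 0.34 to 9.94 ± 0.17 TPM (SD, n = 3), a log2 fold change of 1.28. ATF2, which pairs with JUN and is activated by stress kinases, changed by 0.86, CREB1 by 0.94 and ATF1 by 0.70. BATF changed by -0.54, but its libraries overlapped and its call was lost on leaving out single libraries (limma adjusted p up to 0.117). After scaling 4 were higher and 3 lower, against 32.7% and 32.5% of all genes, and the median was -0.01.

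Upstream of the members, SRF, its coactivators MRTFA and MRTFB, and ETS factors were mostly higher: 9 of 10 rose, no gene of the list passed as lower, and the median was 0.53. After scaling 7 were higher and 1 lower. The shares over all genes were 44.5% higher and 22.3% lower, and 32.7% and 32.5% after scaling. MRTFA (0.49) lost its call after scaling (limma adjusted p = 0.127) and on leaving out a library (limma adjusted p up to 0.104), and MRTFB (0.64) kept it. SRF itself went from 8.63 ± 0.10 to 14.5 ± 0.23 TPM, and ELK1, an ERK-activated partner of SRF, from 21.5 ± 1.35 to 36.6 ± 1.66 (SD, n = 3). ETV4 changed by 1.12 and ELK3 by 0.40. ETS2, which did not pass as deposited (-0.03), was lower after scaling (-0.22).

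Of 28 genes of the MAP kinase cascades, 17 were higher and 5 lower (11 and 8 after scaling), and their median was 0.33. These counts stand beside 44.5% higher and 22.3% lower over all genes (32.7% and 32.5% after scaling). RPS6KA3, which encodes the ERK-activated kinase RSK2, went from 31.03 ± 1.075 to 101.5 ± 2.12 TPM (SD, n = 3), a log2 fold change of 1.68. MAPK9, which encodes JNK2, changed by 0.74 and MAPKAPK2 by 0.73. The genes that fell were MAPK13 (-0.98), MAP3K8 (-0.86), MAP2K6 (-0.74), MAPK11 (-0.53) and MAP2K2 (-0.29). Genes of the p38 branch went both ways: MAPK13, MAPK11 and its activator MAP2K6 fell, while MAPK14 (0.61), MAP2K3 (0.64) and MAPKAPK2 rose and MAPK12 did not pass (0.02). MAP3K8 relays inflammatory signals to ERK. RNA levels of kinases do not measure their activity.

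Of 9 tested MAP kinase phosphatases, 5 were higher and 3 lower (4 and 3 after scaling), and their median was 0.39. DUSP6 and DUSP4, which act on ERK, changed by 0.61 and 0.67, while DUSP1, DUSP10 (-0.91) and DUSP9 (-0.49) fell. DUSP9 was low, at 1.59 and 0.84 TPM in Ctrl and rhLUM, and passed the filter only through Ctrl. With at least 1 TPM in all 6 libraries it was not tested, and 5 phosphatases were higher and 2 lower. Of 9 regulators of transcripts with AU-rich elements, which mark many immediate early mRNAs for decay, 5 were higher and 4 lower (3 and 4 after scaling). For both lists the shares over all genes were 44.5% higher and 22.3% lower (32.7% and 32.5% after scaling). ZC3H12A, the nuclease regnase-1, changed by -1.82, ZFP36L1 by -0.54 and HNRNPD by -0.25, beside ZFP36. ZFP36L2 changed by 0.72 and KHSRP by 0.90.

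Genes widely cited as AP-1 targets went both ways. Of 13 tested, 5 were higher and 6 lower (5 and 7 after scaling), and their median was -0.15. Across all genes 44.5% were higher and 22.3% lower (32.7% and 32.5% after scaling). The collagenase gene MMP1 went from 53.0 ± 2.29 to 17.1 ± 1.13 TPM (log2 fold change -1.58) and SPP1, osteopontin, from 2848 ± 17.2 to 1726 ± 28.0 (-0.72) (SD, n = 3). The cell cycle gene CCND1 changed by 1.07, EZR by 0.81, CD44 by 0.48, KRT18 by 0.35 and HMOX1 by 0.31. PLAUR (-0.82), VEGFA (-0.73), TIMP1 (-0.63) and MMP10 (-0.57, from 1.44 to 0.64 TPM) also fell. MMP3 and MMP9, other matrix proteases of the list, had means under 1 TPM.

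**Figure D5:**
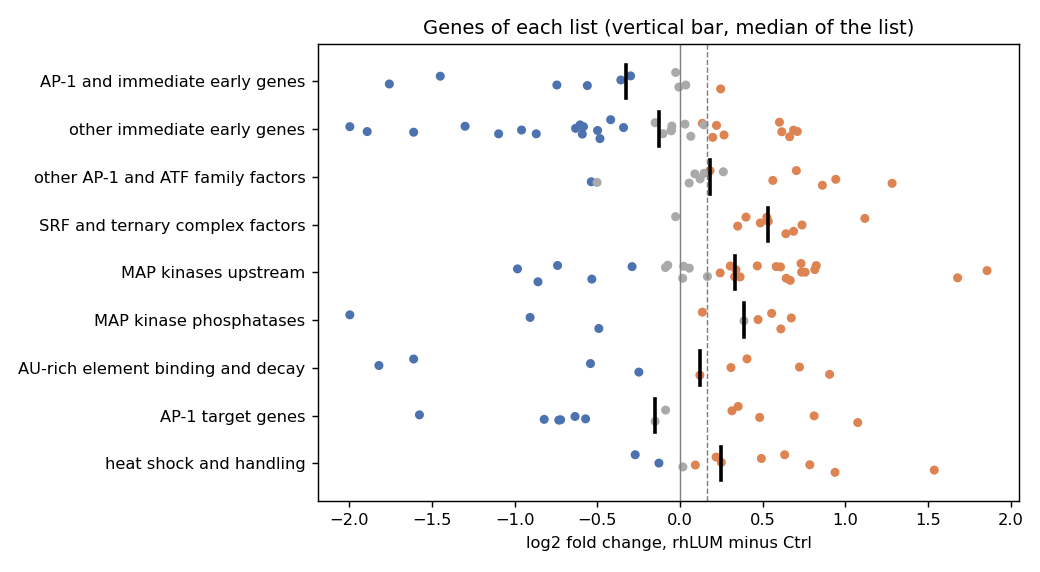
Log2 fold change (rhLUM minus Ctrl) of each tested gene, 1 point per gene and 1 row per list, blue where lower, orange where higher and grey where the test was not passed, with a black bar at the list's median and the median of all genes dashed. The 10 members have a median of -0.33 and the SRF list of 0.53.

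Other measures moved with the groups. Heat shock and handling genes were higher for 8 of 11 and lower for 2 (5 and 4 after scaling), with a median of 0.25. All genes tested were higher for 44.5% and lower for 22.3% (32.7% and 32.5% after scaling). HSPA8 changed by 1.54, DNAJA1 by 0.94, HSPD1 by 0.79 and BAG3 by 0.49, while HSPA1A (-0.13) and HSPA1B (-0.27), near-identical genes that can share reads, fell. The mitochondrial share of TPM was 20.5% to 20.7% in Ctrl and 14.3% to 14.5% in rhLUM. Their part in the changes of the members was not tested. Rescaling without mitochondrial genes left the same 6 members lower and added FOSL2 and IER2 (limma adjusted p = 0.0462 and 0.0391).

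Of 9 markers of the tumour cells 7 were tested, and 4 were higher and 2 lower, against 44.5% and 22.3% of all genes. ALB, serum albumin, went from 289 ± 3.08 to 825 ± 15.4 TPM and the keratin gene KRT8 from 1060.0 ± 4.73 to 2474 ± 9.59 (SD, n = 3), with log2 fold changes of 1.51 and 1.22. TTR changed by 1.05 and KRT18 by 0.35. SERPINA1 changed by -0.87, from 379 ± 2.27 to 208 ± 5.32 TPM, and EPCAM by -0.74, from 2.03 ± 0.32 to 0.82 ± 0.30 (SD, n = 3). AFP did not pass as deposited (31.2 ± 2.45 and 28.6 ± 1.95 TPM, SD, n = 3). It was lower after scaling (-0.31, limma adjusted p = 0.00594). The liver markers GPC3 (0.11 and 0.15 TPM) and APOA1 (0.32 and 1.21 TPM in Ctrl and rhLUM) were low in both groups. The 11 leukocyte markers summed to 223 to 224 TPM in Ctrl and 305 to 310 in rhLUM, of which LYZ made 180 and 241 and CD68 33.6 and 58.1. PTPRC, the defining leukocyte marker, had means of 0.12 and 0.20 TPM, and MS4A1 was at 0 in all libraries. Among the 5 tested leukocyte genes 4 were higher and 1, ITGAM, was lower (8.01 and 3.84 TPM in Ctrl and rhLUM). After scaling 3 were higher and 1 lower. CD3D (0.35 and 1.79 TPM) and CD79A (0.65 and 1.61 TPM in Ctrl and rhLUM) passed the filter only through rhLUM. CD79A lost its call after scaling (limma adjusted p = 0.0781) and on leaving out a library (limma adjusted p up to 0.12). With at least 1 TPM in all 6 libraries, 3 were tested, 2 higher and 1 lower. The 8 fibroblast markers summed to 7.17 to 8.22 TPM in Ctrl and up to 13.9 in rhLUM, with 1 of 3 tested higher (0 after scaling). The 6 endothelial markers summed to 21.6 to 23.0 and 26.9 to 31.8 TPM. Of their 3 tested genes, 1 was higher (PECAM1, 16.4 and 25.3 TPM) and 1 lower (CDH5, 3.10 and 0.45 TPM), also after scaling. The 4 red cell markers summed to 2.95 to 3.50 and 2.09 to 2.91 TPM, with the 1 tested gene not passing. All these markers are human genes (GRCh38), so their sums do not measure how many host cells were present. The part of such cells in the members' changes was not tested, and the sources used here do not say whether host reads were removed.

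Across all genes, the depth of the libraries is unknown, since TPM keeps none. Rows above 0 numbered 23525 to 24060 in the Ctrl libraries and 22323 to 22916 in the rhLUM libraries, which did not overlap, and their part in the results was not tested. Correlations of 0.978 to 0.983 between libraries of a group (Pearson's r across genes, which are not independent replicates) showed no library apart from its group. After median-of-ratios scaling 32.7% of all genes were higher and 32.5% lower, and of the members 8 were lower and none higher, the 8 being the 6 above with FOSL2 and IER2 (limma, adjusted p under 0.05). FOSB was the member with a positive value there (0.07).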

How the data were processed

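RNA was measured in 6 MHCC97L xenograft samples, 3 per group. Per the labels' protocols, poly-A RNA was taken from total RNA and read in pairs by an Illumina instrument. The submitters' processing notes name STAR 2.7.8, RSEM 1.2.31 and the GRCh38 build. The files the authors deposited hold TPM (per the file headers), an estimate of transcripts per length scaled to a sum of about 1000000 in each library, in 60725 rows. TPM keeps no depth, so counting error cannot be stated, and it is relative, so more of some abundant transcripts means less of the rest. The 2210 rows that shared a symbol were left out.

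Genes were kept at a mean of 1 TPM or more. A gene under that mean in a group could pass through the other group. CD3D and CD79A did so through rhLUM, and DUSP9, MMP10, EPCAM, CDH5 and STC1 through Ctrl. limma 3.58.1 (R 4.3.3) with its variance trend was fitted to log2(TPM + 1), with the group as the only term. Tests were two-sided, with Benjamini-Hochberg adjustment across every gene tested and a threshold of 0.05. This scale understates changes of low genes. The plan allowed for counts or TPM, and TPM was found. Shares were compared by exact permutation. The fit was tested on simulated data in which few genes differed and no library was rescaled, so the scaling was not tested there.

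Names followed a rule: all members, up to 4 genes per list by smallest p among those past the threshold, those that passed against most of their list, and the 2 nearest profiles of each member past it. A gene that the rule named is not reported here. Genes outside it, such as CCN1, FOSL1, ETS2, EGR2 to EGR4, MMP3, MMP9, MMP10, PLAUR, VEGFA, TIMP1, MRTFA, MRTFB, MAPK12, MAPK14, MAP2K3 and the markers, were chosen after their values were seen. The members and lists were chosen with earlier results of these data known. CCN1, CCN2, MRTFA and MRTFB were matched by older symbols. Gene positions came from GENCODE release 29, which gave transcript length and GC content for 12834 of the 14781 genes tested (86.8%). Alternatives changed the scaling, pseudocount, filter, variance trend, replicate block or length and GC correction, or left out each library. The sources used here do not name the authors' annotation or their use of strand.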

Additional observations from a re-analysis of the deposited data

How the results depend on the processing

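FOS, JUN, JUNB, EGR1, IER3 and ATF3 were lower, past the threshold, under all 15 alternatives, with FOS between -1.99 and -1.74 (log2). The count of members higher, 1 as deposited (FOSB), was 0 after median-of-ratios scaling, upper quartile scaling, rescaling without mitochondrial genes and with no filter on low values, and 0 to 1 on leaving out each library. It was 1 after correction for length and GC content, where the member was JUND. The count of all genes lower, 3299, was 5117 after upper quartile scaling. JUND, which did not pass, was at -0.160, -0.196 and -0.0715 under median-of-ratios, upper quartile and mitochondria-free scaling, and between -0.0797 and 0.0945 on leaving out each library. FOSL2 lay between -0.0256 and 0.0167 on leaving out each library. The median of the related AP-1 factors changed sign to -0.0114 and -0.0469, and that of the AU-rich regulators to -0.0765 and -0.113, under median-of-ratios and upper quartile scaling. Correction for length and GC content gave -0.0845 for the AU-rich regulators and -0.151 for the endothelial markers, which were at -0.0208 with no filter. The cause was not tested.

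Libraries with the same letter did not deviate together (r = 0.03, -0.02 and 0.08 across genes for A, B and C), and not every library was closest to its own letter, so the letters were not taken as pairs. With the letter as a replicate block, 1 member was higher and 6 lower, with 6429 genes higher and 3219 lower. The blocked differences in share were the same, with an exact p of 0.25, the smallest that 3 pairs can give. The unknown depth limits what can be said of genes near 1 TPM.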
